A study of Mus musculus with 21 samples.

Results

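Tail epidermis of mice carrying SmoM2 tumours was compared with tumour-free epidermis of the control mice of the same experiment. SmoM2 is a constantly active Smoothened, the membrane protein that switches the Hedgehog pathway on. The 7 libraries were taken by their titles from the 21 libraries of the series: 4 labelled SmoM2_BCC (basal cell carcinoma, called BCC below) and 3 labelled SmoM2_Con (called Con). All 7 were in batch A, and keratinocytes were taken 29 days after tumour induction. Tail skin was soaked in trypsin and dispase, the epidermis was scraped off, strained cells were lysed, and polyA RNA was sequenced in bulk. The promoter or Cre line that switched SmoM2 on, the genotype, strain and age of the mice, and whether a library is 1 mouse are not given in the sources used here. The animal names in the table's headers carry the prefix BF in all BCC libraries and TJ in all Con libraries, so the tumour and whatever this prefix stands for cannot be told apart. Nothing states that the libraries came from separate cages or days, so p-values measure the spread between these libraries.

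Hedgehog ligands bind the receptor Patched, which otherwise holds Smoothened inactive. Active Smoothened collects in the primary cilium, a single antenna-like organelle of the cell, and lets the GLI transcription factors leave their inhibitor SUFU and act on target genes. Among those targets are Patched itself and GLI1, so their RNA is widely used as a readout of the pathway. In skin the pathway drives the growth of hair buds, and mutations that lock it on underlie basal cell carcinoma, a tumour whose cells resemble an embryonic hair bud.

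The libraries held 18338808 to 22251132 counts, so that 3 counts corresponded to 0.138 to 0.173 CPM. CPM, the unit of all levels here, is a count scaled to the same total in every library, after adjusting the totals by TMM (trimmed mean of M values). The first principal component of log2 CPM held 64.2% of the variance and set BCC (39.9 to 50.5) apart from Con (−63.9 to −56.8). The second held 12.7% and followed sex. Xist, the RNA of the inactive X chromosome, was at 875 CPM or more in Con replicate 3 and BCC replicates 1 and 2 and at 0.308 CPM or less in the others. The Y-linked genes Ddx3y, Eif2s3y and Kdm5d were at 0 in those 3 libraries and at 26.0 CPM or more in the others. Con replicate 3 was thus the only female Con library. The keratinocyte markers Krt5, Krt14, Krt1, Krt10, Trp63, Cdh1, Perp and Dsp were all abundant, with a summed level of 62240.0 to 78320.0 CPM in Con and 42340.0 to 57850.0 CPM in BCC.

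A gene was called where edgeR's quasi-likelihood test gave an adjusted p under 0.05 (Benjamini-Hochberg over the 16370 genes tested). Of these genes 29.7% were called, 16.2% higher and 13.5% lower in BCC, and 10.6% were called with a change of at least 2-fold. The changes ran further upwards than downwards: 290 called genes were at least 8-fold higher in BCC and 56 were at least 8-fold lower. All BCC libraries lay above all Con libraries for 20.5% of genes and below them for 18% of genes. The 10 most abundant genes took 11.4% to 12.9% of counts in Con and 7.28% to 8.44% in BCC, the keratins among them being described below. Over all genes tested the median log2 fold change was 0.0005. These shares are the background against which each gene group below is read, and each group's count covers only its members with enough counts to be tested.

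**Figure D1:**
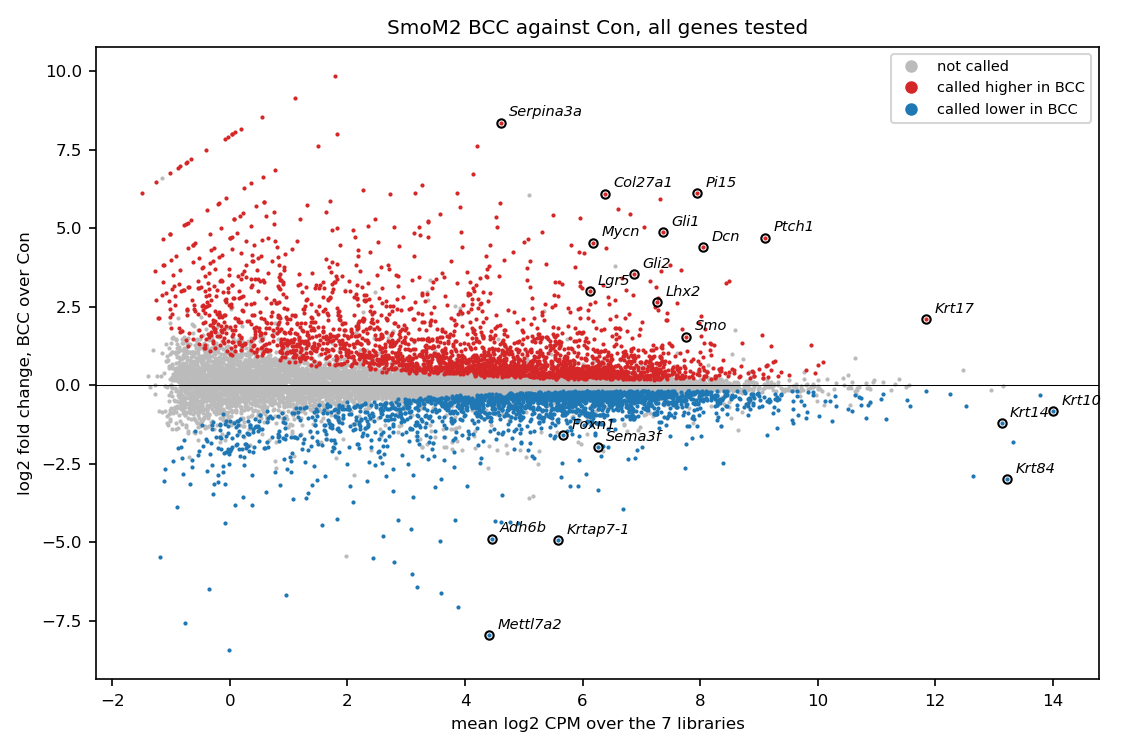
Log2 fold change of BCC over Con (vertical axis) against mean log2 CPM (horizontal axis) for the 16370 genes tested. Called genes are coloured by direction, uncalled genes are grey, and named points are genes described in the text. Called genes reached further above 0 than below it.

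Smo, the gene altered in the model, was at 106, 94.3 and 111 CPM in Con and 317, 308, 287 and 301 CPM in BCC (GRCm38 chr6:29735503-29761365, plus strand). Every BCC library was thus well above every Con library, and values within each group lay close together. Smo rose by 1.55 on the log2 scale (SE 0.08, edgeR adjusted p 1.13e-06). Whether reads of the SmoM2 construct count as Smo was not tested.

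Of the Hedgehog pathway genes tested, 12 of 16 were called higher in BCC and 0 lower, beside 16.2% and 13.5% of all genes. Their median log2 fold change was 1.30. Ptch1, the receptor that restrains Smoothened and a target of the pathway, was at 33.5, 31.0 and 43.2 CPM in Con and 1002, 1079, 813 and 842 CPM in BCC (GRCm38 chr13:63508328-63573598, minus strand). No library of one group came near the other group, and Ptch1 rose by 4.70 on the log2 scale (SE 0.17, edgeR adjusted p 3.5e-07). Among the co-receptors that help cells catch the ligand, Gas1 was at 322, 317 and 354 CPM in Con and 811, 794, 720.2 and 815 CPM in BCC. Boc was at 70.5, 61.2 and 73.9 CPM in Con and 149, 149, 105 and 120.4 CPM in BCC. Both co-receptors rose without overlap, by 1.25 and 0.93 on the log2 scale (SE 0.07 and 0.13, edgeR adjusted p 3.91e-06 and 0.000969). Cdon, the third co-receptor, overlapped between the groups at 36.1 to 53.0 CPM in Con and 43.9 to 51.5 CPM in BCC and was not called (log2 fold change 0.12, SE 0.13, edgeR adjusted p 0.556). Cdon was called without Con replicate 1 (adjusted p 0.0447).

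Both amplifying GLI factors rose from low levels. Gli1, an activator and target of the pathway, was at 6.97, 5.08 and 16.7 CPM in Con and 299, 296, 256 and 275 CPM in BCC (GRCm38 chr10:127329882-127341974, minus strand). Gli2, the main activator downstream of Smoothened, was at 15.9, 17.0 and 17.1 CPM in Con and 199.9, 213, 175 and 187 CPM in BCC (GRCm38 chr1:118834132-119053619, minus strand). Gli3, which acts mostly as a repressor when the pathway is off, was at 38.3, 37.5 and 41.0 CPM in Con and 57.3, 64.4, 60.3 and 55.3 CPM in BCC. Their log2 fold changes were 4.88 (SE 0.43), 3.54 (SE 0.09) and 0.61 (SE 0.08), with edgeR adjusted p of 0.000462, 3.86e-08 and 0.000377. Gli3 thus changed far less than Gli1 and Gli2, and none of the 3 genes overlapped between the groups. The difference in size of change between Gli1 and Gli2 was not tested. Per kilobase of exon, mean levels in Con were highest for Gli3 (4.06 CPM per kb, against 1.92 for Gli1 and 2.43 for Gli2). In BCC the order was Gli1 (56.3), Gli2 (28.2) and Gli3 (6.19 CPM per kb), so the 2 activators passed the repressor. Within females Gli1 differed by 4.15 on the log2 scale and within males by 5.46, the Con replicate 3 value being the highest of the Con libraries. Gli1 had a log2 fold change of 5.53 without Con replicate 3.

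Genes that hold the pathway back rose as well. Kif7, a kinesin at the cilium tip that controls GLI processing, was at 10.2, 6.64 and 8.82 CPM in Con and 46.3, 47.0, 40.9 and 39.9 CPM in BCC. Gpr161, a ciliary receptor that raises cAMP and restrains the pathway, was at 42.7, 31.4 and 27.8 CPM in Con and 66.1, 66.1, 75.7 and 68.1 CPM in BCC. Sufu, which binds and holds GLI proteins, was at 35.8, 38.8 and 46.0 CPM in Con and 51.9, 51.3, 47.4 and 48.5 CPM in BCC. None of the 3 overlapped between the groups, and they rose by 2.34, 1.02 and 0.31 (SE 0.15, 0.14 and 0.09, edgeR adjusted p 4.96e-06, 0.000578 and 0.0342). Hhip, a decoy for the ligands and a pathway target, was at 2.91, 1.39 and 29.2 CPM in Con and 219, 202, 113 and 87.2 CPM in BCC. Every BCC library was above every Con library, but Con replicate 3 was far above the other Con libraries and Hhip was not called (log2 fold change 3.81, SE 1.11, edgeR adjusted p 0.0537). Its log2 difference was 2.84 within females and 5.56 within males. Without Con replicate 3 it was called (log2 fold change 6.13, edgeR adjusted p 0.00523). With no library left out, Hhip was called with the DESeq2 Wald test, with limma-trend or with sex as a covariate (adjusted p 0.00143 to 0.0211). Sufu lost its call without Con replicate 1 or 2 or BCC replicate 1, 2 or 4 (adjusted p 0.0561 to 0.118).

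The ligands themselves stayed near the floor of detection. Shh was at 0.0923, 0.116 and 1.14 CPM in Con and 0.138, 0.0981, 0.235 and 0.0513 CPM in BCC, Ihh at 0 to 0.185 CPM in Con and 0.0491 to 0.276 CPM in BCC and Dhh at 0.0461 to 0.116 CPM in Con and 0.184 to 0.308 CPM in BCC, and none had enough counts to be tested. The high Shh value was that of Con replicate 3, and no BCC library exceeded it. Disp1, which releases the ligand from the cells that make it, was at 5.72, 5.66 and 13.6 CPM in Con and 23.8, 24.2, 17.8 and 19.2 CPM in BCC and rose by 1.35 (SE 0.33, edgeR adjusted p 0.0168). Hhat, which attaches palmitate to the ligand (log2 fold change 0.54, SE 0.18, edgeR adjusted p 0.0511), and Scube2, which helps to carry it away (log2 fold change −0.27, SE 0.42, edgeR adjusted p 0.673), were not called. Disp1 lost its call without Con replicate 1 or 2 (adjusted p 0.0527 to 0.0538). Hhat was called with the DESeq2 Wald test, with limma-trend or with sex as a covariate (adjusted p 0.0269 to 0.0442).

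**Figure D2:**
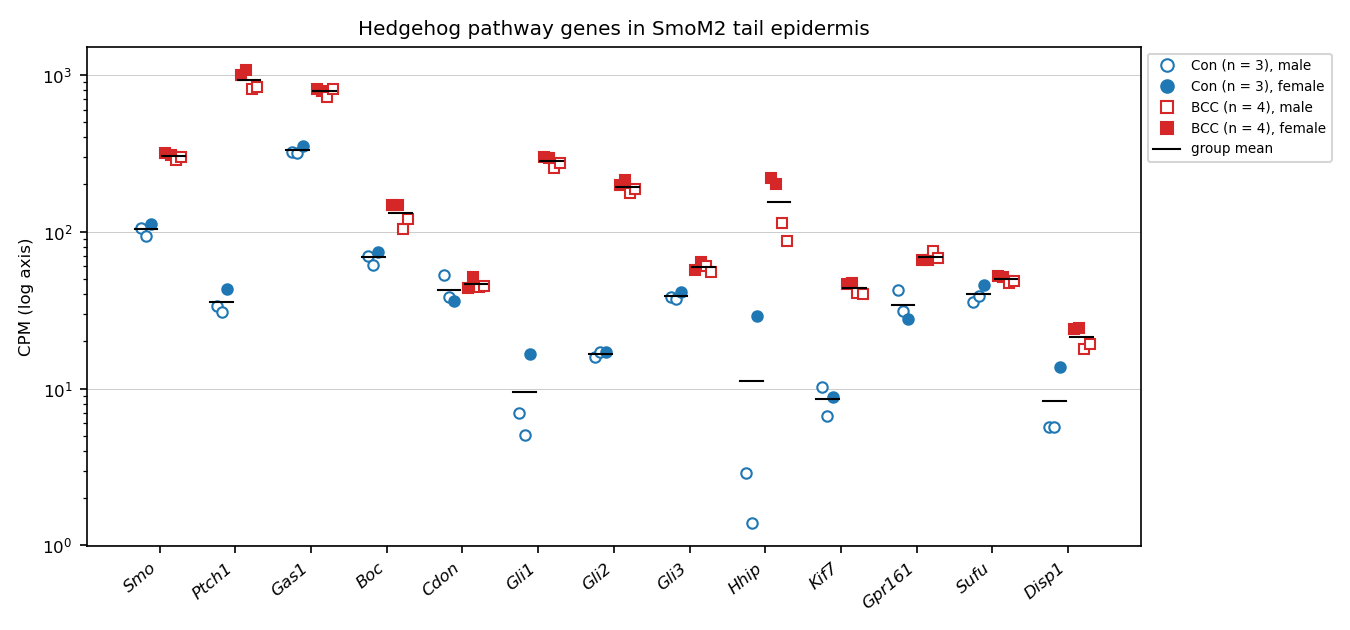
CPM of Hedgehog pathway genes in each of the 7 libraries on a log axis, with Con libraries as circles, BCC libraries as squares and female libraries filled. Horizontal bars are group means. Ptch1, Gli1 and Gli2 have a wide gap between the groups, Cdon overlaps, and the female Con library is the highest of its group for Gli1 and Hhip.

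Genes known as Hedgehog targets elsewhere were called higher in 5 of 13 cases, with a median log2 fold change of 0.38, so the listed targets did not move as one. Mycn, a growth-promoting MYC family factor, was at 2.77, 5.26 and 8.01 CPM in Con and 105, 109, 133 and 145 CPM in BCC and rose by 4.54 (SE 0.35, edgeR adjusted p 0.000143). The Con libraries were all in single digits and the BCC libraries all above every one of them. Bcl2, which blocks cell death, was at 16.2 to 16.9 CPM in Con and 32.8 to 38.0 CPM in BCC and rose (log2 fold change 1.10, SE 0.08, edgeR adjusted p 1.43e-05). Foxe1 and Foxm1 were called at 0.738 to 1.36 CPM in Con and 1.42 to 4.78 CPM in BCC and at 37.4 to 48.8 CPM in Con and 51.8 to 62.2 CPM in BCC, with log2 fold changes of 1.71 and 0.44. The cyclins Ccnd1 (283 to 324 CPM in Con and 333 to 343 CPM in BCC) and Ccnd2 (282 to 341 CPM in Con and 320.4 to 369 CPM in BCC), the kinase gene Cdk6 and the Notch ligand gene Jag2 were not called, with log2 fold changes from 0.06 to 0.18. Igf2 and Foxc2, targets in other tissues, stayed at 1.98 CPM or less in all libraries and were not called. Hedgehog targets called higher numbered 3 without Con replicate 2, in place of 5. Foxe1 lost its call without Con replicate 1 or 2 (adjusted p 0.0513 to 0.0577) and Foxm1 without Con replicate 2 (adjusted p 0.0577). Ccnd1 was called with sex as a covariate or without Con replicate 1 (adjusted p 0.0251 to 0.0428).

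Transcription factors of the hair bud and of follicle stem cells formed a group in which 9 of 10 were called higher and 0 lower (median 0.81). Lhx2, a stem cell factor of the bulge, was at 34.7, 37.0 and 44.6 CPM in Con and 245, 220.2, 255 and 246 CPM in BCC. Runx1 was at 17.9, 17.7 and 22.7 CPM in Con and 44.3, 46.8, 65.9 and 59.4 CPM in BCC, and Sox9, which sets up the bulge and marks basal cell carcinoma, was at 96.1, 102 and 66.3 CPM in Con and 192, 149, 242 and 219.8 CPM in BCC. In none of the 3 did the groups overlap, and they rose by 2.64, 1.48 and 1.19 (SE 0.10, 0.16 and 0.21, edgeR adjusted p 2.81e-07, 0.000192 and 0.00497). Tcf7l1 (0.96), Tbx1 (0.90), Foxc1 (0.72), Tcf7l2 (0.61), Nfatc1 (0.52) and Nfib (0.37) rose by smaller amounts on the log2 scale. The remaining member was not called. Nfib lost its call without Con replicate 2 (adjusted p 0.05).

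Factors of the hair matrix and hair shaft split instead, with 3 of 12 called higher and 5 lower. Foxi3, an early placode factor, was nearly silent in Con and was at 0.692, 0.578 and 1.58 CPM in Con and 34.1, 32.2, 45.5 and 45.6 CPM in BCC (log2 fold change 5.37, SE 0.32, edgeR adjusted p 1.15e-05). Lef1, the Wnt effector of the hair germ, was at 1.29, 3.58 and 6.10 CPM in Con and 7.67, 11.7, 11.0 and 8.76 CPM in BCC and rose by 1.43, and Gata3 rose by 0.67. Foxn1, whose loss gives nude mice, was at 65.1, 75.2 and 106 CPM in Con and 30.4, 30.3, 22.8 and 25.4 CPM in BCC. Foxq1 was at 122 to 147 CPM in Con and 42.7 to 65.7 CPM in BCC, Dlx3 at 45.3 to 105 CPM in Con and 21.7 to 36.1 CPM in BCC, Hoxc13 at 86.3 to 152 CPM in Con and 47.6 to 63.6 CPM in BCC and Ovol1 at 101 to 127 CPM in Con and 43.6 to 70.9 CPM in BCC. These 5 factors, which act late in hair and epidermal differentiation, fell by 1.59, 1.39, 1.28, 0.96 and 0.92 on the log2 scale. Con replicate 3 held the highest level of all 5 in Con, and without it they fell by 0.66 to 1.37. Dlx3 lost its call without BCC replicate 1 or 2 and with no filter on low counts (adjusted p 0.0513 to 0.0624) and Lef1 without Con replicate 2 or BCC replicate 1, 2, 3 or 4 and with no filter on low counts (adjusted p 0.0597 to 0.127). Lef1 had a log2 fold change of 2.03 without Con replicate 3.

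Surface and niche genes of follicle stem cells were called higher in 6 of 10 cases and lower in 0. Lgr5, the R-spondin receptor of cycling follicle stem cells, was at 11.6, 11.9 and 18.4 CPM in Con and 122, 94.6, 119.9 and 108 CPM in BCC (log2 fold change 2.99, SE 0.18, edgeR adjusted p 1.12e-05). Its paralogue Lgr6, which marks the cells above the bulge, was not called (log2 fold change 0.28, SE 0.13, edgeR adjusted p 0.151). Edar, the ectodysplasin receptor that sets placodes, was at 0.969 to 2.34 CPM in Con and 6.21 to 7.89 CPM in BCC and rose by 2.07 (SE 0.28). Postn rose by 1.27, Lrig1, a stem cell marker of the junctional zone, by 1.19, and Cd200 by 1.13. Cdh3, the placode cadherin, rose by 0.47, with no overlap in any of the 6. Krt15, which marks the resting bulge, was at 1608 to 1852 CPM in Con and 1450.0 to 1576 CPM in BCC and was not called (log2 fold change −0.17, SE 0.07, edgeR adjusted p 0.102). Lgr6 was called with sex as a covariate or without BCC replicate 2 (adjusted p 0.0377 to 0.0472).

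The keratins changed in composition. Krt17, a keratin of the outer root sheath and of basal cell carcinoma, was at 1386, 1432 and 1015 CPM in Con and 5272, 5163, 5789.6 and 5634 CPM in BCC (GRCm38 chr11:100256217-100261029, minus strand). It rose by 2.10 (SE 0.12, edgeR adjusted p 3.56e-06) and moved into the 10 most abundant genes of BCC. Krt14, a basal keratin, was at 14803, 14091 and 10830.1 CPM in Con and 5456, 5518, 5874 and 6175 CPM in BCC and fell by 1.20 (SE 0.11, edgeR adjusted p 3.65e-05). Its basal partner Krt5 was at 17928, 15896 and 14021 CPM in Con and 12429.9, 12972, 12432 and 13494 CPM in BCC and fell by 0.31 (SE 0.09), much less than Krt14. Of the simple and follicular keratins besides Krt17, Krt7 rose (10.2 to 18.3 CPM in Con and 19.8 to 26.1 CPM in BCC) and Krt8 fell (4.15 to 7.30 CPM in Con and 3.14 to 4.37 CPM in BCC, overlapping groups), while Krt18, Krt79 and the other keratins of this list were not called. Krt5 lost its call without Con replicate 1 or 2 or BCC replicate 1, 2, 3 or 4 (adjusted p 0.0503 to 0.0927), Krt7 without Con replicate 1 or 3 or BCC replicate 2 or 3 (adjusted p 0.0533 to 0.0841) and Krt8 without Con replicate 2 or 3 or BCC replicate 1, 2 or 4 and with limma-trend on the authors' normalized values (adjusted p 0.0526 to 0.181). Krt79 was called with sex as a covariate (adjusted p 0.00926).

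Of the 16 genes of the basal layer tested, Krt5 and Krt14 included, 8 were called lower and 3 higher (median −0.22). Those that fell included the hemidesmosome genes that tie basal cells to the basement membrane. Itga6 was at 505 to 635 CPM in Con and 355 to 429 CPM in BCC and fell by 0.57, and Col17a1 was at 3098 to 3723 CPM in Con and 2403 to 2722 CPM in BCC and fell by 0.46. Plec fell by 0.45 and Itgb4 by 0.27, whereas their neighbour Itga3 was not called (log2 fold change −0.16, SE 0.10, edgeR adjusted p 0.24). Sfn, which encodes 14-3-3 sigma, fell by 0.77. In contrast Trp63, the master regulator of stratified epithelium, was at 747, 716 and 731 CPM in Con and 976, 1201, 930.4 and 977 CPM in BCC and rose by 0.48 (SE 0.09). The laminin gene Lamb3 rose by 0.53 and Cd44 by 0.24. Cd44 lost its call without Con replicate 1, 2 or 3 or BCC replicate 2, 3 or 4 and with DESeq2 size factors and with no filter on low counts (adjusted p 0.0512 to 0.13), Itgb4 without Con replicate 1 or 2 or BCC replicate 1, 2, 3 or 4 (adjusted p 0.0635 to 0.0914) and Krt5 without Con replicate 1 or 2 or BCC replicate 1, 2, 3 or 4 (adjusted p 0.0503 to 0.0927). Itga3 was called without Con replicate 3 (adjusted p 0.0275).

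Genes of the spinous and granular layers were called lower in 14 of 23 cases and higher in 0, with a median of −1.10 beside 0.0005 over all genes. Krt10, the suprabasal keratin, was at 18457, 27212 and 19773 CPM in Con and 11617, 9523, 12185 and 16327 CPM in BCC and fell by 0.81 (SE 0.20, edgeR adjusted p 0.0186). Krt2, a late suprabasal keratin, was at 13303, 20448 and 18052 CPM in Con and 6435, 5758, 3521 and 4137 CPM in BCC and fell by 1.80 (SE 0.24, edgeR adjusted p 0.00145). Krt1, the partner of Krt10, behaved differently: at 4949, 6607 and 2393 CPM in Con and 4269, 3112, 7748 and 10636 CPM in BCC it overlapped and was not called (log2 fold change 0.47, SE 0.55, edgeR adjusted p 0.586). Within BCC, Krt1 was higher in both male than in both female libraries, and the female Con library was the lowest of all 7. Dsc1 and Dsg1a, desmosomal cadherins of the upper layers, fell by 1.37 and 1.08, and the secreted Krtdap and Sbsn by 1.15 and 1.03. Flg2, a filaggrin family gene of the granular layer, was at 14.9, 48.1 and 44.4 CPM in Con and 3.17, 3.48, 10.7 and 8.56 CPM in BCC and fell by 2.47 (SE 0.60). Also in the granular layer, Klk5 fell by 1.41, Tgm1 by 1.17, Casp14 by 1.10, Ivl by 1.06 and Tgm3 by 1.00. Lor and Flg, the main cornified envelope and filament genes, were not called (log2 fold change −1.41, SE 0.76, edgeR adjusted p 0.23 and log2 fold change −1.46, SE 0.79, edgeR adjusted p 0.236). Spinous and granular genes called lower numbered 7 without Con replicate 2, 8 without Con replicate 3 and 9 without BCC replicate 1, in place of 14. Spinous and granular genes called higher numbered 1 with sex as a covariate, in place of 0. Casp14 lost its call without Con replicate 2 or 3 or BCC replicate 1 and with no filter on low counts (adjusted p 0.05 to 0.0686), Flg2 without Con replicate 2 or 3 or BCC replicate 1, 2 or 4 and with no filter on low counts (adjusted p 0.0528 to 0.082) and Ivl without Con replicate 2 or 3 or BCC replicate 1, 2 or 4 and with no filter on low counts and with sex as a covariate (adjusted p 0.0507 to 0.13). Klk5 lost its call without Con replicate 2 or 3 or BCC replicate 1 and with no filter on low counts (adjusted p 0.0673 to 0.0999), Krt10 without Con replicate 2 or 3 (adjusted p 0.0516 to 0.06) and Tgm1 without Con replicate 2 or 3 or BCC replicate 1 (adjusted p 0.0507 to 0.077). Krt1 was called with sex as a covariate (adjusted p 0.025).

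Mouse tail skin carries scales made of hard, hair-type keratins, and 2 of these keratins, Krt84 and Krt36, fell furthest among the 10 most abundant genes of Con. Krt84 was at 12347, 15697 and 29089 CPM in Con and 3445, 2530.4, 1388 and 2243 CPM in BCC (GRCm38 chr15:101525026-101532820, minus strand). Krt36 was at 8339, 10877 and 18560.2 CPM in Con and 2451, 1721, 1014 and 1607 CPM in BCC (GRCm38 chr11:100102007-100105626, minus strand). Neither was among the 10 most abundant genes of BCC, and they fell by 2.99 (SE 0.42, edgeR adjusted p 0.00331) and 2.89 (SE 0.39, edgeR adjusted p 0.00267). Con replicate 3 held the most of both, and the log2 fold changes were −2.55 and −2.50 without it. Of the 12 hard keratins tested, 3 were called lower and 9 had all BCC libraries below all Con libraries, with a median of −1.91. Krt34 fell by 1.99 and was at 4.47 to 8.61 CPM in Con and 0.368 to 2.54 CPM in BCC. Keratins of the inner root sheath had a median of −1.38, and 0 of 9 were called by edgeR. At an unadjusted p under 0.05 there were 2, the DESeq2 Wald test called 1 and limma-trend 0. Hard keratin genes called lower numbered 2 with no filter on low counts, without Con replicate 2 or without BCC replicate 4. They numbered 5 with limma-trend, 6 without BCC replicate 1, 7 with the DESeq2 Wald test and 9 without BCC replicate 3, in place of 3. Inner root sheath genes called lower numbered 1 with the DESeq2 Wald test or without Con replicate 1 and 2 without BCC replicate 3, in place of 0. Krt34 lost its call without Con replicate 2 or BCC replicate 4 and with no filter on low counts (adjusted p 0.0514 to 0.0977).

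**Figure D3:**
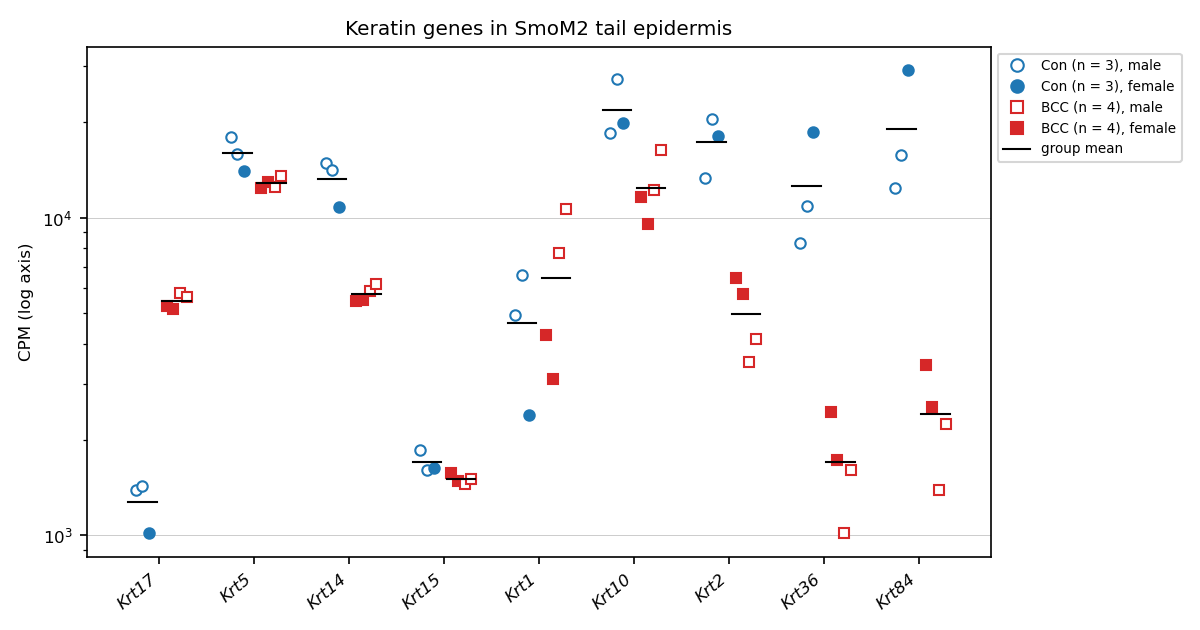
CPM of 9 keratin genes in each of the 7 libraries on a log axis, with Con libraries as circles, BCC libraries as squares and female libraries filled. Horizontal bars are group means. Krt17 lies higher in BCC, Krt14, Krt10, Krt2, Krt36 and Krt84 lie lower, and Krt1 overlaps.

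Transcription factors that drive epidermal differentiation were called lower in 8 of 15 cases and higher in 2 (median −0.58). Maf, which acts in terminal differentiation, was at 510.1, 501 and 469.9 CPM in Con and 191, 223, 174 and 211 CPM in BCC and fell by 1.31 (SE 0.09), with a wide gap between the groups. Grhl3, needed for the barrier, fell by 1.22, Klf4, a second barrier factor, by 0.87, Cebpa by 0.67, Zfp750 by 0.58 and Grhl1 by 0.58. Bcl6 and Hopx rose by 0.64 and 0.32. The other 5 factors were not called. Grhl1 lost its call without Con replicate 2 or 3 or BCC replicate 1, 2 or 4 and with sex as a covariate (adjusted p 0.0557 to 0.0923).

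Desmosome genes fell in 8 of 12 cases. Beside the suprabasal cadherins above, Dsp was at 6939, 7728 and 7818 CPM in Con and 4545, 4985, 4655 and 4805 CPM in BCC, Pkp1 at 3517 to 4128 CPM in Con and 2356 to 2536 CPM in BCC and Jup at 2088 to 2508 CPM in Con and 1404 to 1602 CPM in BCC. These 3 plaque proteins, which link the cadherins to keratin filaments, fell by 0.66, 0.68 and 0.63 (SE 0.07, 0.07 and 0.08) with no overlap. Dsg3, the basal desmoglein, was the single desmosome gene edgeR called higher (333 to 475 CPM in Con and 566 to 622 CPM in BCC, log2 fold change 0.52). Connexin genes fell in 3 of 6 cases, Gjb6 by 1.05, Gjb5 by 0.86 and Gja1 by 0.44. Among tight junction genes Cldn4, Cldn8 and Tjp1 fell by 0.95, 0.94 and 0.41 and Cldn1 rose by 0.47. Cdh1, the epithelial cadherin, was at 640.1 to 842 CPM in Con and 619 to 729 CPM in BCC and was not called (log2 fold change −0.12, SE 0.10, edgeR adjusted p 0.411). Cldn4 lost its call without Con replicate 2 or 3 or BCC replicate 1, 2 or 4 and with no filter on low counts and with sex as a covariate and with limma-trend on the authors' normalized values (adjusted p 0.0571 to 0.148), Gja1 without Con replicate 2 or 3 or BCC replicate 1, 2 or 4 (adjusted p 0.0644 to 0.111) and Gjb6 without Con replicate 2 or BCC replicate 1, 2, 3 or 4 and with no filter on low counts and with sex as a covariate and with limma-trend on the authors' normalized values (adjusted p 0.0505 to 0.103).

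Enzymes that make the barrier lipids of the stratum corneum were called lower in 11 of 18 cases and higher in 0 (median −0.62). Aloxe3 and Alox12b, lipoxygenases that process ceramides, were at 24.8 to 61.9 CPM in Con and 14.6 to 17.8 CPM in BCC and at 34.9 to 103 CPM in Con and 14.6 to 31.7 CPM in BCC. They fell by 1.46 and 1.57, as did Sdr9c7 (−1.27), Pnpla1 (−1.12) and Abca12 (−1.09), the lipid transporter of lamellar bodies. Of the genes of sterol and fatty acid synthesis 6 of 24 were called lower and 1 higher (median −0.25). Scd2 fell by 0.75, Pmvk by 0.66, Mvk by 0.57, Srebf1 by 0.48, Fasn by 0.42 and Elovl5 by 0.36, while Idi1 rose by 0.52. Barrier lipid genes called lower numbered 4 without Con replicate 3, 5 without Con replicate 2 or without BCC replicate 1, 6 without BCC replicate 2 or without BCC replicate 4 and 7 with no filter on low counts, in place of 11. Sterol and fatty acid genes called lower numbered 10 without BCC replicate 3, in place of 6. Abca12 lost its call without Con replicate 3 (adjusted p 0.0571), Alox12b without Con replicate 2 or 3 or BCC replicate 1, 2 or 4 and with no filter on low counts and with sex as a covariate (adjusted p 0.0655 to 0.1) and Scd2 without Con replicate 3 (adjusted p 0.0801). Sdr9c7 lost its call without Con replicate 2 or 3 or BCC replicate 1, 2, 3 or 4 and with no filter on low counts and with sex as a covariate (adjusted p 0.0523 to 0.0954).

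The Wnt genes went both ways, 12 of 37 higher and 11 lower, with a median of −0.02. Among ligands Wnt7b was at 50.5, 51.9 and 59.0 CPM in Con and 284, 266, 252 and 255 CPM in BCC and Wnt6 at 3.00, 2.48 and 6.65 CPM in Con and 35.0, 34.9, 26.6 and 29.0 CPM in BCC. These 2 rose by 2.30 (SE 0.08, edgeR adjusted p 1.94e-07) and 2.96 (SE 0.33, edgeR adjusted p 0.000472). The other 6 called ligands fell: Wnt7a by 2.02, Wnt3a by 1.06, Wnt3 by 0.94, Wnt4 by 0.92, Wnt10b by 0.61 and Wnt10a by 0.50. Wnt4, the most abundant of these, was at 217, 184 and 228 CPM in Con and 106, 105, 113 and 120.1 CPM in BCC, with no overlap. Of the receptors 6 of 12 rose and 3 fell. Lgr4 was at 119.8, 112 and 137 CPM in Con and 341, 377, 364 and 367 CPM in BCC and rose by 1.56 (SE 0.08), and the Frizzled genes Fzd7, Fzd3, Fzd1 and Fzd2 rose by 1.04, 1.03, 0.89 and 0.78. Fzd10 was at 94.1 to 104 CPM in Con and 40.8 to 50.0 CPM in BCC and fell by 1.14. The secreted inhibitor Wif1 was at 3.74, 3.47 and 5.01 CPM in Con and 27.8, 21.7, 27.2 and 19.1 CPM in BCC and rose by 2.56, while the inhibitor Sfrp1 fell by 0.45. Genes used as readouts of Wnt signalling did not move together: Tcf7 and Znrf3 rose by 1.07 and 0.48, Axin2 fell by 0.56, and Rnf43 was not called (log2 fold change −0.24, SE 0.11, edgeR adjusted p 0.13). Axin2 lost its call without Con replicate 1 or 3 (adjusted p 0.0511 to 0.0552) and Wnt10b without Con replicate 1 or 2 or BCC replicate 1 or 2 (adjusted p 0.0611 to 0.0818). Rnf43 was called without Con replicate 2 (adjusted p 0.035).

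Notch signalling moves keratinocytes from the basal to the spinous layer. All 3 receptor genes tested fell, Notch2 by 0.54, Notch3 by 0.52 and Notch1 by 0.37. Notch1 was at 465, 392 and 439.9 CPM in Con and 344, 370.0, 286 and 338 CPM in BCC, so the groups came close without overlap. The ligand gene Jag1 was at 122, 127 and 112 CPM in Con and 210.3, 209.5, 199 and 203 CPM in BCC and rose by 0.78 (SE 0.06). Of the target genes, Heyl (1.88) and Hey1 (1.43) rose at levels under 8 CPM, and Hes1 was not called (log2 fold change −0.02, SE 0.17, edgeR adjusted p 0.946). Heyl lost its call without Con replicate 2 (adjusted p 0.0745) and Notch1 without Con replicate 1 (adjusted p 0.0503). Heyl had a log2 fold change of 2.72 without Con replicate 3.

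BMP and TGF-beta genes were called higher in 13 of 23 cases and lower in 1 (median 0.95). These are secreted factors that restrain hair growth and proliferation, and activins, which they include, act in hair bud formation. Tgfb3 was at 11.3, 9.64 and 10.0 CPM in Con and 114, 94.5, 105 and 88.1 CPM in BCC (log2 fold change 3.28, SE 0.12, edgeR adjusted p 1.94e-07). Bmp3 was at 1.34, 0.751 and 0.49 CPM in Con and 25.6, 33.9, 20.2 and 23.5 CPM in BCC and rose by 4.87 (SE 0.32). The activin subunit genes Inhba and Inhbb were at 0.381 to 0.52 CPM in Con and 3.34 to 5.65 CPM in BCC and at 23.4 to 36.0 CPM in Con and 111 to 151 CPM in BCC, and rose by 3.29 and 2.09. Tgfb2 rose by 1.82, Bmp6 by 0.95 and Tgfb1 by 0.86, whereas Bmp4 was at 7.63 to 13.0 CPM in Con and 3.22 to 4.86 CPM in BCC and fell by 1.30. Of 8 inhibitors tested 5 were called higher, among them the secreted antagonists Sostdc1 (1.79), Chrd (1.77), Grem1 (1.58) and Fst (1.41). Sostdc1, a placode gene that blocks both BMP and Wnt, was at 119.9, 103 and 114 CPM in Con and 422, 449, 306 and 375 CPM in BCC, with a wide gap between the groups. Of the 5 response genes listed edgeR called Id4 alone (0.46), and the DESeq2 Wald test and limma-trend called 3 each. Id1 was not called by edgeR (log2 fold change 0.69, SE 0.24, edgeR adjusted p 0.0653). Id1 was called with the DESeq2 Wald test, with limma-trend, with sex as a covariate or without Con replicate 3 (adjusted p 0.000231 to 0.0427).

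Of the EGF and FGF genes 6 of 23 were called higher and 2 lower. Fgf2, a growth factor, was at 0.0461, 0.173 and 0.599 CPM in Con and 5.79, 4.91, 11.0 and 7.12 CPM in BCC and rose by 4.73 (SE 0.59), although its exons overlap those of Nudt6. Fgfr1 was at 85.6, 88.8 and 101 CPM in Con and 219, 227, 198 and 204 CPM in BCC and rose by 1.21 (SE 0.08), Fgfr2 rose by 0.42, and Egfr was not called (log2 fold change 0.08, SE 0.08, edgeR adjusted p 0.499). The response genes Etv4, Dusp6 and Spred1 rose by 1.23, 0.97 and 0.46. The ligand genes Btc and Fgf22 fell by 1.95 and 1.88, with Con replicate 3 the highest Con library in both, and by 1.23 and 1.57 without it. EGF and FGF genes called lower numbered 0 without Con replicate 2 or without BCC replicate 1 and 1 with no filter on low counts, without Con replicate 3 or without BCC replicate 4, in place of 2. Btc lost its call without Con replicate 2 or BCC replicate 1, 2 or 4 and with no filter on low counts (adjusted p 0.0512 to 0.0646), Dusp6 without Con replicate 1, 2 or 3 (adjusted p 0.0548 to 0.0754) and Fgf22 without Con replicate 2 or 3 or BCC replicate 1 (adjusted p 0.0637 to 0.0758). Fgfr2 lost its call without Con replicate 1 or 2 or BCC replicate 1, 2 or 4 (adjusted p 0.0531 to 0.124). Fgf2 had a log2 fold change of 6.04 without Con replicate 3.

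Platelet-derived and insulin-like growth factor genes were called higher in 8 of 12 cases and lower in 1 (median 1.36). Igfbp7 was at 24.9, 28.4 and 30.4 CPM in Con and 255, 263, 214 and 247 CPM in BCC (log2 fold change 3.13, SE 0.10, edgeR adjusted p 1.37e-07). Igfbp5 was at 21.8, 15.5 and 30.1 CPM in Con and 155, 234, 98.4 and 99.6 CPM in BCC, higher in the female than in the male BCC libraries, and rose by 2.71 (SE 0.43). These are secreted binding proteins of insulin-like growth factors, of which Igfbp6 and Igfbp4 also rose (1.57 and 1.11) and Igfbp2 fell (−1.57). The receptor gene Igf1r and the adaptor gene Irs1 rose by 1.31 and 1.78. Pdgfa, a signal from the hair bud to the dermis, was at 25.6 to 28.9 CPM in Con and 71.7 to 91.8 CPM in BCC and rose by 1.66, and Pdgfc rose by 1.42. Of the YAP targets Ccn2 rose by 1.28, Axl by 0.54 and Ajuba by 0.32, Amotl2 fell by 0.57, and 0 of 9 AP-1 and immediate early genes were called by edgeR in either direction. At an unadjusted p under 0.05 there were 3, the DESeq2 Wald test called 1 and limma-trend 0. YAP and AP-1 genes called lower numbered 0 without Con replicate 3, without BCC replicate 1 or without BCC replicate 2, 2 with the DESeq2 Wald test or without Con replicate 1 and 3 without BCC replicate 3, in place of 1. Amotl2 lost its call without Con replicate 2 or 3 or BCC replicate 1, 2 or 4 (adjusted p 0.0501 to 0.0768) and Igfbp2 without Con replicate 2 or BCC replicate 2, 3 or 4 (adjusted p 0.0558 to 0.0614).

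Matrix genes were called higher in 23 of 41 cases and lower in 6 (median 0.67). The neighbouring collagen IV genes Col4a1 and Col4a2, which form the main network of the basement membrane, were at 14.8, 16.6 and 33.2 CPM in Con and 246, 248, 289 and 286 CPM in BCC and at 12.4 to 20.1 CPM in Con and 152 to 182 CPM in BCC. They rose by 3.63 (SE 0.31) and 3.43 (SE 0.17). Col4a3, Col4a4 and Col4a6, chains of other networks, fell by 0.58, 0.47 and 0.46. Hspg2, the basement membrane proteoglycan perlecan, was at 69.0, 57.3 and 50.4 CPM in Con and 586, 633, 507 and 534 CPM in BCC and rose by 3.26 (SE 0.13, edgeR adjusted p 3.29e-07). Nid1, Lamc3, Lamb2, Lama5, Lamc1 and Lamb1 rose by 1.66, 1.54, 0.85, 0.78, 0.58 and 0.54. Tnc, a tenascin of growing and wounded tissue, was at 76.2, 47.9 and 53.0 CPM in Con and 557, 737, 511 and 539.8 CPM in BCC and rose by 3.31 (SE 0.21). Col27a1, a fibrillar collagen, was at 1.29, 0.982 and 4.03 CPM in Con and 126, 162, 122 and 166 CPM in BCC (log2 fold change 6.10, SE 0.45, edgeR adjusted p 0.000162). Frem1 and Fbln2 rose by 3.53 and 2.16, and Fbln1 by 1.47. Against this trend, Fras1, which partners Frem1 and Frem2 at the epidermal junction, was at 120.2, 116 and 46.0 CPM in Con and 10.7, 13.5, 20.5 and 22.7 CPM in BCC and fell by 2.48 (SE 0.43). Frem2 rose (1.38), so the Fraser complex genes moved in opposite directions. Sparc was at 446, 433 and 227 CPM in Con and 78.7, 73.1, 125 and 131 CPM in BCC and fell by 1.86. Matrix genes called lower numbered 3 without BCC replicate 2, in place of 6. Col4a3 lost its call without Con replicate 1 or 2 or BCC replicate 1, 2 or 3 (adjusted p 0.0687 to 0.148), Col4a4 without Con replicate 1, 2 or 3 or BCC replicate 2 or 4 (adjusted p 0.0518 to 0.136) and Lamc3 without Con replicate 1 or 2 or BCC replicate 1 (adjusted p 0.0601 to 0.0903). Col27a1 had a log2 fold change of 6.96 without Con replicate 3 and Frem1 of 5.41 without Con replicate 3.

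Proteases and their inhibitors rose in 7 of 10 cases and fell in 0. Pi15, a secreted protein first described as a trypsin inhibitor, was at 6.37, 7.97 and 4.14 CPM in Con and 444, 483, 398 and 391 CPM in BCC (GRCm38 chr1:17601901-17630939, plus strand). The increase was about 69.7-fold (log2 fold change 6.12, SE 0.22, edgeR adjusted p 1.22e-06). Adamts1 was at 14.6, 12.0 and 16.4 CPM in Con and 110.3, 111, 173 and 133 CPM in BCC and rose by 3.20, Mmp11 rose by 1.96 and Timp3 by 1.30. The collagenase-activating membrane protease Mmp14 and its substrate Mmp2 rose by 0.89 and 0.90, while Mmp9 and Mmp13 were not called.

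Axon guidance genes, many of which also position epithelial cells, were called higher in 13 of 30 cases and lower in 8. Slit3 was at 7.61, 6.53 and 8.82 CPM in Con and 77.8, 63.7, 83.5 and 73.6 CPM in BCC (log2 fold change 3.28, SE 0.13, edgeR adjusted p 3.62e-07). Slit1 and Ntn1 were near the floor in Con and at 0.554 to 1.20 CPM in Con and 8.47 to 13.0 CPM in BCC and 0.369 to 0.871 CPM in Con and 6.66 to 7.95 CPM in BCC, and rose by 3.69 and 3.62. Robo1 and Robo2, the receptors of the Slit proteins, rose by 1.29 and 1.51. Sema3f was at 123, 134 and 144 CPM in Con and 35.1, 35.0, 32.3 and 34.0 CPM in BCC (log2 fold change −1.97, SE 0.07, edgeR adjusted p 2.3e-07), and Sema3d was at 51.5 to 64.7 CPM in Con and 12.4 to 19.6 CPM in BCC and fell by 1.84. Their receptors split: Nrp2 was at 27.3, 28.4 and 51.0 CPM in Con and 228, 256, 255 and 242 CPM in BCC and rose by 2.79 (SE 0.23), and Nrp1 was at 5.21, 6.81 and 5.34 CPM in Con and 1.56, 1.86, 1.27 and 1.18 CPM in BCC and fell by 1.97 (SE 0.22). Plxna4 rose by 3.50 and Epha7 by 2.17, while Ephb6, Unc5b and Plxnd1 fell by 0.76, 0.68 and 0.83. Robo1 lost its call without Con replicate 3 (adjusted p 0.0799).

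Genes of the primary cilium, through which Smoothened signals, were called higher in 12 of 25 cases and lower in 1 (median 0.37). Tulp3, which carries receptors such as Gpr161 into the cilium, was at 19.3, 20.5 and 20.3 CPM in Con and 110.5, 107, 96.2 and 105 CPM in BCC (log2 fold change 2.38, SE 0.08, edgeR adjusted p 1.37e-07). Evc and Evc2, partners of Smoothened at the cilium base, rose by 1.30 and 0.72. Among intraflagellar transport genes, Ift57, Ift27, Ift80, Ift81 and Ift122 rose by 0.95, 0.94, 0.88, 0.75 and 0.71, and Ift20 fell by 0.48. Arl13b and the motor genes Kif3c and Kif3a rose by 0.55, 0.77 and 0.29. Ift88 and Dync2h1, which are needed for cilium growth, were not called (log2 fold change 0.18, SE 0.10, edgeR adjusted p 0.204 and log2 fold change 0.24, SE 0.14, edgeR adjusted p 0.245). Kif3a lost its call without Con replicate 1, 2 or 3 or BCC replicate 1, 2 or 3 and with DESeq2 size factors and with no filter on low counts and with sex as a covariate (adjusted p 0.0504 to 0.117).

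None of the mitosis genes passed the test. Of 20 mitosis genes 0 were called higher and 0 lower by edgeR, and their median log2 fold change was −0.15. At an unadjusted p under 0.05 there were 3, the DESeq2 Wald test called 1 and limma-trend 0. Mki67, the common proliferation marker, was at 317, 243 and 238 CPM in Con and 205, 205, 236 and 241 CPM in BCC (log2 fold change −0.26, SE 0.11, edgeR adjusted p 0.105), so the groups overlapped. Top2a was at 134 to 159 CPM in Con and 135 to 151 CPM in BCC and was not called either. Of 20 replication genes Pola1 (0.53) and Mcm7 (0.33) rose, and Rrm2 (−0.48) and Pcna (−0.31) fell. In bulk RNA fewer cells of a kind and less RNA per cell cannot be told apart, which holds for every level given here. Mitosis genes called lower numbered 1 with the DESeq2 Wald test and 2 without BCC replicate 4, in place of 0. Replication genes called higher numbered 1 without Con replicate 2, without Con replicate 3, without BCC replicate 1, without BCC replicate 3 or without BCC replicate 4 and 5 without Con replicate 1, in place of 2. Mcm7 lost its call without Con replicate 2 or 3 or BCC replicate 1, 3 or 4 (adjusted p 0.0623 to 0.12).

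Regulators of the cell cycle differed gene by gene. Beside Mycn above, Myc was at 129.9 to 161 CPM in Con and 105 to 123 CPM in BCC and fell by 0.32 (SE 0.09), and Mycl fell by 0.73, so the 3 MYC family genes did not move alike. Cdk4 was at 111, 124 and 102 CPM in Con and 165, 165, 169 and 179 CPM in BCC and rose by 0.59. Among inhibitors of cyclin-dependent kinases, Cdkn1a, a p53 target, was at 275, 344 and 316 CPM in Con and 167, 158, 211 and 189 CPM in BCC and fell by 0.78 (SE 0.11). Cdkn2a was at 0 to 0.0923 CPM in Con and 0.638 to 1.27 CPM in BCC, close to the floor in Con, and was called higher. Cdkn1c rose by 1.04 and Cdkn2b and Cdkn2c fell by 0.47 and 0.40. Of the apoptosis regulators 5 of 9 rose and 0 fell. They act on both sides: Bcl2 blocks death, while Pmaip1 (1.43), Bik (1.53), Bax (0.39) and Bbc3 (0.35) promote it. Genes of the cell cycle and apoptosis list called higher numbered 5 without BCC replicate 1, in place of 9. Genes of the cell cycle and apoptosis list called lower numbered 3 without Con replicate 3 or without BCC replicate 4, in place of 5. Bax lost its call without Con replicate 1 or 3 or BCC replicate 1 (adjusted p 0.0534 to 0.058), Bbc3 without Con replicate 1, 2 or 3 or BCC replicate 1, 2 or 4 (adjusted p 0.0584 to 0.117) and Bik without Con replicate 1 or 3 or BCC replicate 1, 2, 3 or 4 and with no filter on low counts and with sex as a covariate (adjusted p 0.0523 to 0.119). Cdkn1c lost its call without Con replicate 1, 2 or 3 or BCC replicate 1 (adjusted p 0.0589 to 0.0941), Cdkn2c without Con replicate 1 (adjusted p 0.0561) and Myc without Con replicate 3 or BCC replicate 1 or 4 (adjusted p 0.0555 to 0.0635). Mycl lost its call without Con replicate 3 or BCC replicate 4 (adjusted p 0.0577 to 0.0773).

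Glycolysis genes rose in 10 of 14 cases and fell in 1. The inducible hexokinase gene Hk2 was at 41.1, 45.0 and 54.1 CPM in Con and 152, 154, 156 and 153 CPM in BCC and rose by 1.72 (SE 0.09, edgeR adjusted p 1.9e-06). Hk1, the constitutive hexokinase, fell by 0.20. The lactate exporter Slc16a3 rose by 1.77, Pfkl by 0.93 and the glucose transporter Slc2a1 by 0.53. Of the genes known to respond to low oxygen, P4ha1 rose by 1.19, Vegfa by 1.17, Car12 by 1.13 and Bnip3 by 1.06. Car9 and Adm, which respond to the same signal, were not called (log2 fold change 0.31, SE 0.30, edgeR adjusted p 0.484 and log2 fold change −0.68, SE 0.33, edgeR adjusted p 0.157). Hk1 lost its call without Con replicate 2 or 3 or BCC replicate 1, 2, 3 or 4 and with no filter on low counts (adjusted p 0.0536 to 0.107), Slc16a3 without Con replicate 2 or BCC replicate 1, 2 or 4 and with no filter on low counts (adjusted p 0.0502 to 0.076) and Slc2a1 without Con replicate 2 or 3 or BCC replicate 1 or 4 (adjusted p 0.0507 to 0.0956).

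Detoxification and retinoid genes went both ways (6 of 30 higher, 9 lower). Adh6b, an alcohol dehydrogenase, was at 31.6, 63.8 and 51.5 CPM in Con and 2.02, 0.932, 1.60 and 2.05 CPM in BCC (log2 fold change −4.88, SE 0.32, edgeR adjusted p 2.89e-05). Its neighbour Adh6a was at 2.49 to 6.65 CPM in Con and 0.0491 to 0.735 CPM in BCC and fell by 3.58. Gsta2 and Gsta1, near-identical glutathione transferase genes whose counts may be shared, fell by 2.36 and 2.00. In retinoid handling, Dhrs9 and Aldh3a1 rose by 2.09 and 1.11, and Stra6, Rdh12 and Crabp2 fell by 1.84, 1.01 and 0.88. Txnrd1 rose by 1.17 and Srxn1 fell by 0.57, although both are targets of the stress factor Nrf2. Stra6 lost its call without Con replicate 1 or 2 or BCC replicate 1, 2 or 4 and with no filter on low counts (adjusted p 0.0917 to 0.138).

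Genes of MHC class I antigen presentation were called higher in 8 of 9 cases, with a median of 0.84. Psmb8, an immunoproteasome subunit, was at 4.47, 3.52 and 5.39 CPM in Con and 32.6, 33.5, 21.3 and 20.1 CPM in BCC and rose by 2.59 (SE 0.25, edgeR adjusted p 9.69e-05). Its companion Psmb9 rose by 1.64, and the peptide transporters Tap1 and Tap2 by 0.96 and 0.84. H2-K1 was at 92.6, 92.2 and 87.9 CPM in Con and 172, 156, 145 and 139.6 CPM in BCC, and the class I genes H2-K1, B2m and H2-D1 rose by 0.75, 0.55 and 0.30. Nlrc5, the activator of class I genes, rose by 1.54. Of interferon response genes 2 of 8 were called, Oasl2 (3.06) and Irf1 (1.08). Oasl2 was too low to be tested without BCC replicate 1, 2 or 4. H2 genes belong to a family of similar genes, so their counts are uncertain. H2-D1 lost its call without Con replicate 2 or 3 or BCC replicate 1 or 2 (adjusted p 0.0682 to 0.107), Oasl2 without Con replicate 1 or 2 and with limma-trend on the authors' normalized values (adjusted p 0.0508 to 0.107) and Tap2 without Con replicate 1 or 2 or BCC replicate 1 (adjusted p 0.0501 to 0.0741). Oasl2 had a log2 fold change of 2.42 without Con replicate 1 and 4.22 without Con replicate 3.

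Among wound and alarm genes, S100a8 and S100a9 were at 42.5, 15.8 and 4.41 CPM in Con and 265, 201, 439 and 289 CPM in BCC and at 5.12 to 57.6 CPM in Con and 185 to 588 CPM in BCC. Both rose, by 3.82 (SE 0.82) and 3.68 (SE 0.96), and the defensin gene Defb3 was at 1.11, 0.52 and 0 CPM in Con and 5.05, 3.09, 31.8 and 23.5 CPM in BCC. Defb3 was called higher with a male to female split within BCC. Of the wound list 3 of 9 genes were called higher by edgeR. Krt6a, Krt6b and Krt16, the wound keratins, were not among them, and Krt16 was at 95.2 to 195 CPM in Con and 264 to 854 CPM in BCC. Among cytokine genes Cntfr, a receptor of ciliary neurotrophic factor, was at 1.85, 2.48 and 5.94 CPM in Con and 185, 172, 155 and 154 CPM in BCC (log2 fold change 5.62, SE 0.37, edgeR adjusted p 8.04e-05). Csf1, a macrophage growth factor, was at 7.95 to 10.2 CPM in Con and 24.9 to 32.4 CPM in BCC and rose by 1.55, and the chemokine genes Cxcl1 and Cxcl14 rose by 2.29 and 0.97. Tnf and Lifr rose by 1.82 and 0.81, while the alarm cytokines Il33 and Il18 and the chemokine Cx3cl1 fell by 0.70, 1.49 and 0.99. Wound and alarm genes called higher numbered 0 without Con replicate 2, 1 with no filter on low counts, without Con replicate 3, without BCC replicate 3 or without BCC replicate 4 and 6 with sex as a covariate, in place of 3. Defb3 lost its call without Con replicate 1, 2 or 3 or BCC replicate 3 or 4 and with no filter on low counts (adjusted p 0.0684 to 0.126), Il18 without Con replicate 2 or 3 or BCC replicate 1, 2 or 3 and with no filter on low counts (adjusted p 0.0534 to 0.108) and Il33 without Con replicate 2 or BCC replicate 1, 2, 3 or 4 and with no filter on low counts and with sex as a covariate and with limma-trend on the authors' normalized values (adjusted p 0.0522 to 0.108). S100a8 lost its call without Con replicate 2 (adjusted p 0.073), S100a9 without Con replicate 2 or 3 or BCC replicate 1, 2, 3 or 4 and with no filter on low counts (adjusted p 0.0592 to 0.116) and Tnf without Con replicate 1 or 2 (adjusted p 0.0664 to 0.0896). Krt16 was called with the DESeq2 Wald test, with sex as a covariate or without BCC replicate 2 (adjusted p 2.21e-05 to 0.0356) and Krt6a was called with sex as a covariate (adjusted p 0.000356). Cntfr had a log2 fold change of 6.28 without Con replicate 3, S100a8 of 4.89 without Con replicate 1 and S100a9 of 5.03 without Con replicate 1.

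Protein kinase A, which cAMP activates, restrains the Hedgehog pathway. Of its genes and those of cAMP turnover, 10 of 29 were called higher and 5 lower (median 0.36). Gnas, the stimulatory G protein, was at 193, 194 and 182 CPM in Con and 295, 289, 315 and 313 CPM in BCC and rose by 0.68. The inhibitory G protein genes differed, Gnai2 rising by 0.36 and Gnai1 and Gnai3 falling by 0.40 and 0.29. The regulatory subunits of the kinase differed too, Prkar1b rising by 3.20 at 0.52 to 1.06 CPM in Con and 6.30 to 7.72 CPM in BCC, Prkar2b rising by 0.92 and Prkar2a falling by 0.30. The catalytic subunit gene Prkacb was at 94.4 to 128 CPM in Con and 114 to 130.1 CPM in BCC and was not called. Pkia, a kinase inhibitor, was called (0.89). Adcy7, Adcy1, Pde4d and Pde4b rose by 1.16, 0.68, 1.32 and 0.61, and Adcy9 and Pde8a fell by 0.54 and 0.52. Of the cAMP response genes outside these, Nr4a3 rose by 1.97, and Crem and Per1 were not called (log2 fold change 0.40, SE 0.19, edgeR adjusted p 0.147 and log2 fold change 0.58, SE 0.21, edgeR adjusted p 0.0824). cAMP genes called lower numbered 3 without Con replicate 3 or without BCC replicate 1, in place of 5. Adcy1 lost its call without Con replicate 1 or 3 or BCC replicate 1, 2, 3 or 4 (adjusted p 0.0561 to 0.108), Adcy7 without Con replicate 2 or BCC replicate 4 (adjusted p 0.0592 to 0.0779) and Adcy9 without BCC replicate 1 (adjusted p 0.0505). Gnai3 lost its call without Con replicate 2 or 3 or BCC replicate 1 or 2 (adjusted p 0.0805 to 0.104), Pde4b without Con replicate 1 or 2 (adjusted p 0.0585 to 0.0743) and Pde8a without Con replicate 1 or 3 or BCC replicate 3 or 4 (adjusted p 0.0731 to 0.104). Pkia lost its call without Con replicate 1 or 3 or BCC replicate 1 or 2 (adjusted p 0.06 to 0.0749). Per1 was called with the DESeq2 Wald test or with sex as a covariate (adjusted p 0.0103 to 0.0256) and Prkacb was called without Con replicate 3 (adjusted p 0.0423).

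**Figure D4:**
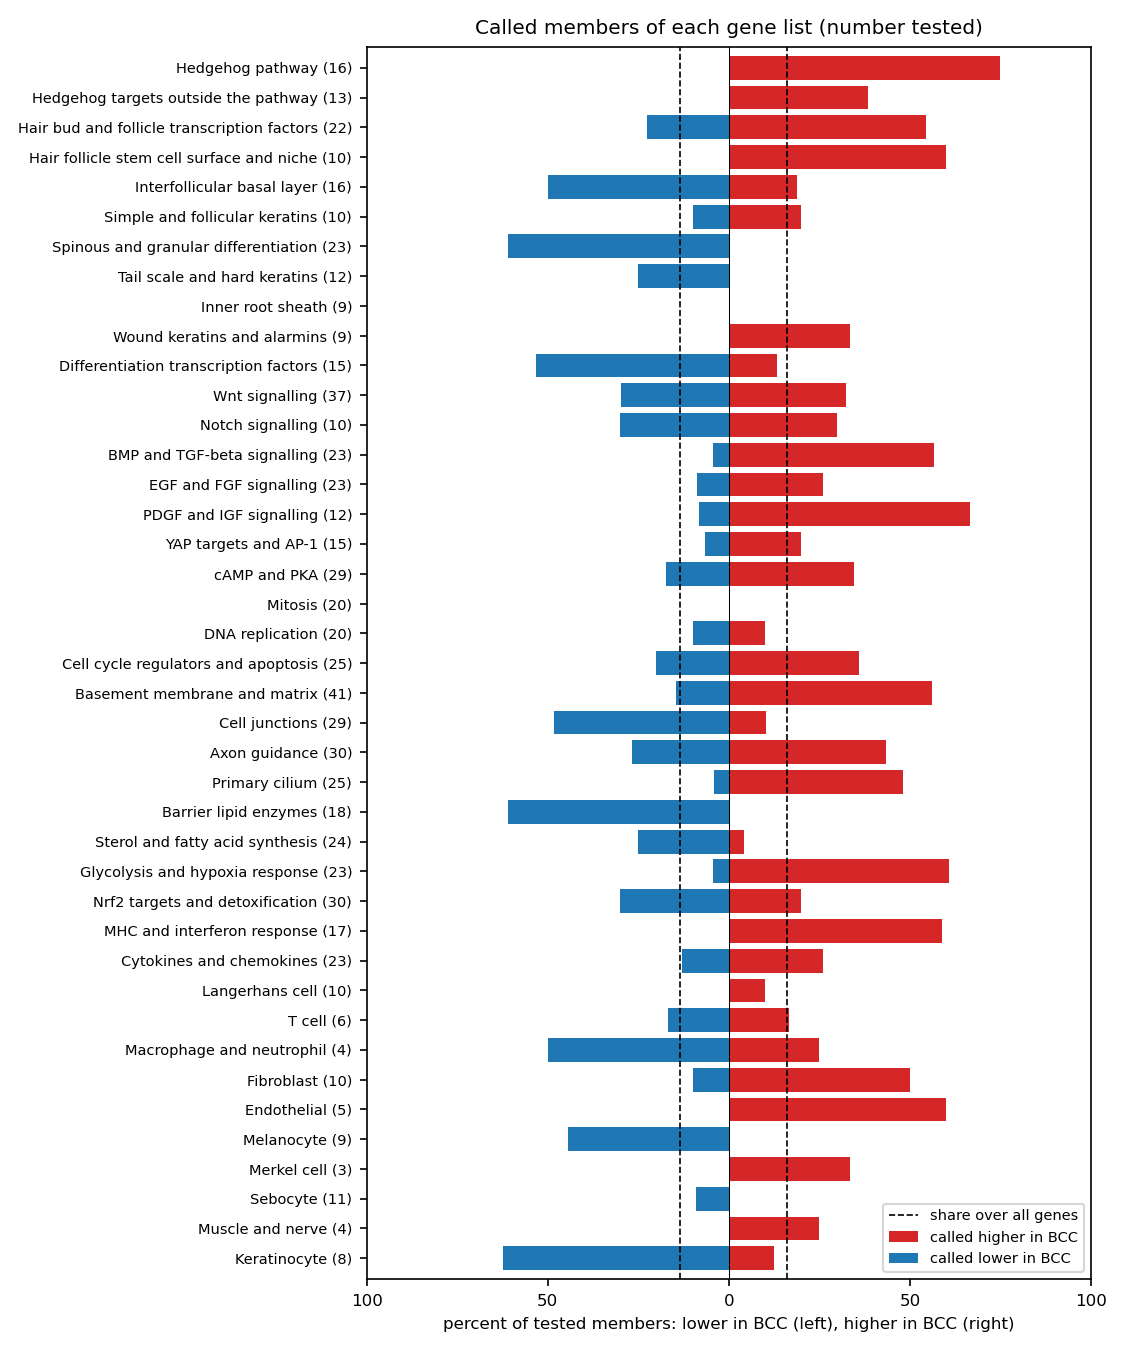
Percent of tested members called higher (right) and lower (left) in BCC for each gene list, with the number tested beside its name. Dashed lines mark the shares over all genes, 16.2% higher and 13.5% lower. Hedgehog pathway genes and MHC genes lie to the right, spinous and granular, desmosome-containing junction and barrier lipid genes to the left, and mitosis genes have no called member.

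Markers of other cell types that the preparation could hold were read the same way, since bulk RNA mixes them. Melanocyte markers summed to 144 to 246 CPM in Con and 136 to 193 CPM in BCC, and 4 of 9 were called lower: Mlana by 1.19, Kit by 1.02, Tyr by 1.00 and Slc24a5 by 0.92. Dct and Pmel, their most abundant markers, were not called (log2 fold change −0.28, SE 0.24, edgeR adjusted p 0.432 and log2 fold change −0.29, SE 0.19, edgeR adjusted p 0.303). Langerhans cell markers summed to 244 to 298 CPM in Con and 314 to 400.4 CPM in BCC, with Epcam, which keratinocytes of the follicle also make, called higher (0.76) and Cd207, their defining marker, not called (4.38 to 6.70 CPM in Con and 1.44 to 6.97 CPM in BCC). T cell markers other than Thy1 stayed under 4 CPM in every library. Il2rb, a cytokine receptor subunit among them, was at 0.173 to 0.323 CPM in Con and 0.41 to 1.83 CPM in BCC and rose by 1.98, while Thy1, which other skin cells also make, fell by 1.23. Without BCC replicate 1, 2 or 3 Il2rb was too low to be tested, so it was not called in those fits either. Of 4 macrophage and neutrophil markers tested, Fcgr3 and Itgam fell by 3.05 and 1.56 and Cd68 rose by 1.32, all under 18 CPM. Sebocyte markers summed to 3176 to 5017 CPM in Con and 2895 to 4988 CPM in BCC, and edgeR called Fabp5 alone (it fell by 0.95). Sebocyte markers called higher numbered 1 without BCC replicate 2 or without BCC replicate 4 and 3 with the DESeq2 Wald test, in place of 0. Melanocyte markers called lower numbered 2 without Con replicate 2, in place of 4. Melanocyte markers called higher numbered 1 without BCC replicate 4, in place of 0. Langerhans cell markers called higher numbered 2 without Con replicate 2, without Con replicate 3 or without BCC replicate 4, in place of 1. Langerhans cell markers called lower numbered 1 with sex as a covariate or without BCC replicate 2, in place of 0. Il2rb lost its call without Con replicate 2 or 3 (adjusted p 0.0628 to 0.0942), Mlana without Con replicate 2 (adjusted p 0.0579) and Slc24a5 without Con replicate 2 (adjusted p 0.0629). Cd207 was called with sex as a covariate or without BCC replicate 2 (adjusted p 0.0414 to 0.0476) and Dct was called without Con replicate 1 (adjusted p 0.0294). Pmel was called without Con replicate 1 (adjusted p 0.0456). Fcgr3 had a log2 fold change of −2.46 without Con replicate 3.

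Fibroblast markers were called higher in 5 of 10 cases and lower in 1, with a summed level of 144 to 172 CPM in Con and 465 to 618 CPM in BCC. In Con most of that sum was Thy1, and in BCC most was Dcn, a proteoglycan of the dermis, at 23.0, 12.3 and 27.9 CPM in Con and 368, 507, 404 and 509 CPM in BCC. Dcn rose by 4.40 (SE 0.32, edgeR adjusted p 0.000107) and Col5a1 by 2.10. In contrast Col1a1 and Col3a1, the defining collagens of fibroblasts, stayed at 1.20 to 1.91 CPM in Con and 1.18 to 3.72 CPM in BCC and at 0.784 to 6.15 CPM in Con and 1.88 to 4.33 CPM in BCC and were not called. Col1a2 was at 1.20, 1.44 and 3.27 CPM in Con and 19.7, 22.5, 10.2 and 7.79 CPM in BCC and rose by 2.94, and Twist2 and Pdgfrb were called higher at levels under 3 CPM, Pdgfrb being too low to be tested without BCC replicate 1, 2 or 3. Endothelial markers were near the floor (Emcn and Cldn5 were at 0 in all Con libraries), with a summed level of 1.89 to 4.03 CPM in Con and 6.66 to 11.5 CPM in BCC, and Egfl7, Tek and Vwf were called higher. Endothelial markers called higher numbered 1 without Con replicate 2, without BCC replicate 1 or without BCC replicate 2, in place of 3. Merkel cell, muscle and nerve markers summed to under 9 CPM per list, and Piezo2 rose by 2.12. The part of these cell types in the matrix genes that rose was not tested. Tek lost its call without Con replicate 2 or 3 or BCC replicate 1 or 2 (adjusted p 0.0524 to 0.103) and Vwf without Con replicate 1 or 2 or BCC replicate 1 or 2 (adjusted p 0.0568 to 0.0854). Piezo2 had a log2 fold change of 3.00 without Con replicate 1.

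**Figure D5:**
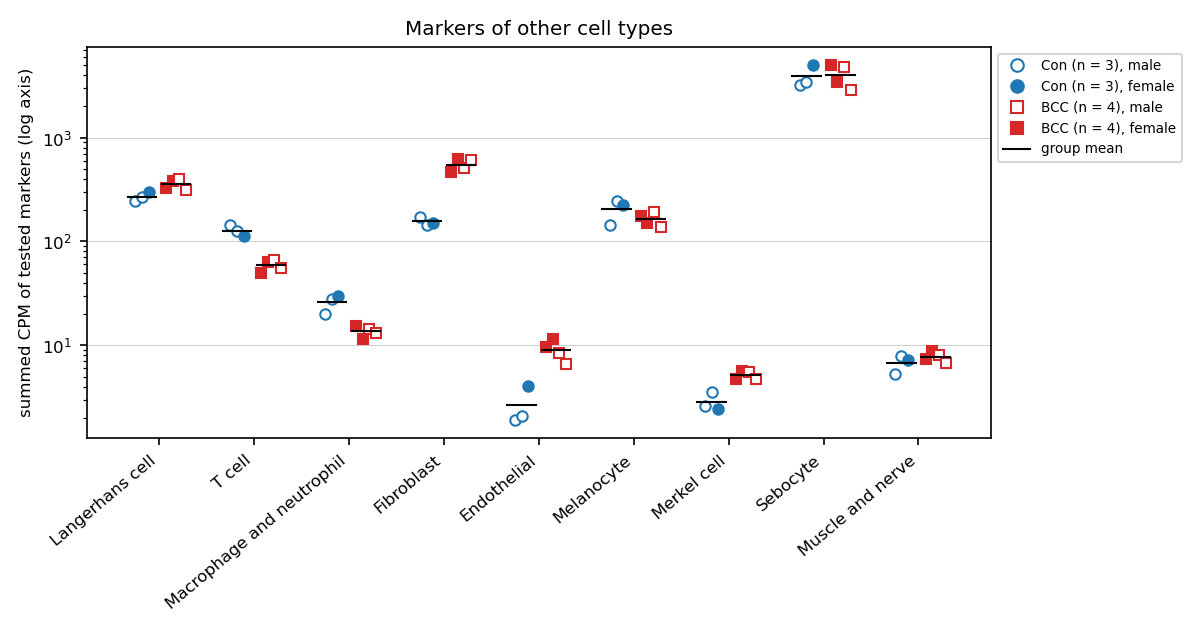
Summed CPM of the listed markers of other cell types in each of the 7 libraries on a log axis, with Con libraries as circles, BCC libraries as squares and female libraries filled. The sums include markers too low to be tested, although the axis label names tested markers. Fibroblast and endothelial sums lie higher in BCC, the T cell sum, most of it Thy1, and the macrophage sum lie lower, and melanocyte and sebocyte sums overlap.

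Turning to single genes, among called genes whose groups did not overlap and whose average log2 CPM reached 2, the largest rises were led by Serpina3a, a serine protease inhibitor. It was at 0.0461, 0.231 and 0.109 CPM in Con and 94.0, 57.5, 11.8 and 5.74 CPM in BCC, so the female BCC libraries were the highest and the male ones the lowest of their group (log2 fold change 8.36, SE 1.86, edgeR adjusted p 0.0229). Myrip, a protein that links vesicles to actin, was at 0.231, 0.0578 and 0.163 CPM in Con and 25.5, 23.5, 30.9 and 48.1 CPM in BCC (log2 fold change 7.62, SE 0.46, edgeR adjusted p 1.43e-05). Dscaml1, a neuronal adhesion molecule, was at 0.0578 to 0.327 CPM in Con and 12.9 to 20.4 CPM in BCC and rose by 6.38. Kcnj8, a potassium channel, was at 0 to 0.185 CPM in Con and 4.51 to 12.7 CPM in BCC and rose by 6.20. Hhipl1, Cyyr1, Gm5084, Slc15a2, Lgi3 and Dio2 rose by 6.73, 6.14, 6.13, 6.09, 5.82 and 5.68. Dio2, which activates thyroid hormone, was at 0.0461, 0.462 and 1.03 CPM in Con and 24.1, 21.8, 31.6 and 25.0 CPM in BCC, and Slc15a2, a peptide transporter, was at 0.0461 to 0.289 CPM in Con and 9.43 to 15.3 CPM in BCC. The Con libraries held 1.10 CPM or less of each of these genes, so their fold changes rest on few Con counts. How far these fold changes depend on the prior count was not tested. Serpina3a lost its call without Con replicate 1, 2 or 3 (adjusted p 0.0741 to 0.097). Dio2 had a log2 fold change of 5.07 without Con replicate 1 and 6.74 without Con replicate 3, Hhipl1 of 7.43 without Con replicate 1 and Kcnj8 of 7.02 without Con replicate 1. Serpina3a had a log2 fold change of 7.61 without BCC replicate 1 and 9.02 without Con replicate 2 and Slc15a2 of 6.72 without Con replicate 2.

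Among the genes of smallest p, the first was Rpsa-ps2, a processed pseudogene of a ribosomal protein gene, at 4.29, 4.91 and 3.87 CPM in Con and 206, 187, 182 and 192 CPM in BCC (log2 fold change 5.46, SE 0.10, edgeR adjusted p 4.51e-09). Its parent gene shares most of its sequence, so this count is uncertain. Of the processed pseudogenes tested 4.87% were called higher and 4.93% lower, against 18.2% and 15.1% of protein-coding genes. Rpl15-ps2, another of them, was at 2.68, 3.35 and 3.27 CPM in Con and 41.0, 43.8, 46.0 and 3.59 CPM in BCC, with BCC replicate 4 at the Con level and the other 3 far above. The remaining small p-values, beside genes described above, were those of Ccdc187 (4.89, SE 0.14), Arhgef40 (2.82, SE 0.08) and Pltp (2.58, SE 0.09). Pltp, a phospholipid transfer protein, was at 20.4, 23.9 and 23.6 CPM in Con and 139, 142, 122 and 138 CPM in BCC, and Arhgef40, a guanine nucleotide exchange factor, was at 18.4, 18.9 and 21.0 CPM in Con and 138, 131, 133 and 146 CPM in BCC. Each had narrow ranges in both groups. Rpl15-ps2 lost its call without Con replicate 1, 2 or 3 or BCC replicate 1, 2 or 3 and with no filter on low counts and with sex as a covariate and with limma-trend on the authors' normalized values (adjusted p 0.0688 to 0.132).

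Among called genes without overlap and with an average log2 CPM of 2 or more, the deepest fall was that of Mettl7a2, a methyltransferase-like gene, at 58.7, 23.2 and 66.2 CPM in Con and 0.276, 0.491, 0 and 0 CPM in BCC (log2 fold change −7.96, SE 0.74, edgeR adjusted p 0.000504). It was at 0 in both male BCC libraries, and in no BCC library above 0.491 CPM. Adh6b and Clec2g, a lectin-like gene, were next outside chromosome 16, Clec2g at 14.7, 17.0 and 24.6 CPM in Con and 0.414, 0.491, 1.13 and 1.13 CPM in BCC (−4.56). The other 12 of the 15 deepest falls lay on chromosome 16 in the clusters of keratin-associated protein genes, which encode the matrix of hair and scale. Krtap7-1 was at 42.3, 76.1 and 203 CPM in Con and 1.65, 5.40, 4.00 and 2.92 CPM in BCC (log2 fold change −4.94, SE 0.71, edgeR adjusted p 0.00429). Each of the 12 was highest in Con replicate 3 and lowest in Con replicate 1, as in 1110025L11Rik at 5.07, 19.6 and 78.2 CPM in Con and 0.368, 0.245, 0.329 and 0.0513 CPM in BCC. They also include Gm10228, Gm10229, Krtap6-5, Krtap6-2, Krtap21-1, Krtap6-1, 2310061N02Rik, 2310057N15Rik, Krtap13 and 2310034C09Rik, which fell by 4.35 to 6.60. Without Con replicate 3 all 12 had smaller changes, with falls of 2.95 to 5.58. Krtap8-1 and Krtap13-1 fell by 3.00 and 2.90 and were among the called genes that varied most within BCC. These genes belong to families of similar sequence, so their counts are uncertain. 2310034C09Rik lost its call without Con replicate 2 or BCC replicate 1, 2, 3 or 4 and with limma-trend on the authors' normalized values (adjusted p 0.0503 to 0.0781), 2310057N15Rik without Con replicate 2 or 3 or BCC replicate 1, 2, 3 or 4 and with no filter on low counts and with limma-trend on the authors' normalized values (adjusted p 0.0512 to 0.0865) and Krtap13 without BCC replicate 1, 2, 3 or 4 (adjusted p 0.0505 to 0.0702). Krtap13-1 lost its call without Con replicate 2 or 3 or BCC replicate 1, 2 or 4 and with no filter on low counts and with sex as a covariate (adjusted p 0.0661 to 0.127), Krtap21-1 without BCC replicate 3 (adjusted p 0.0516) and Krtap6-1 without BCC replicate 1, 2, 3 or 4 and with no filter on low counts and with limma-trend on the authors' normalized values (adjusted p 0.0537 to 0.0879). Krtap6-2 lost its call without BCC replicate 1, 2, 3 or 4 and with no filter on low counts and with limma-trend on the authors' normalized values (adjusted p 0.057 to 0.0915) and Krtap8-1 without Con replicate 2 or 3 or BCC replicate 2 or 4 and with no filter on low counts and with sex as a covariate (adjusted p 0.0523 to 0.0871). Krtap13-1 had a log2 fold change of −3.50 without BCC replicate 3 and Mettl7a2 of −8.92 without BCC replicate 2.

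The gene that varied most within Con beside the sex-linked ones was Cyp2g1, a cytochrome P450, at 0.554, 0.173 and 224 CPM in Con and 15.7, 9.91, 0.235 and 0.103 CPM in BCC. It was high in the female Con library, lower in the female BCC libraries and near 0 in all male libraries, and it was not called (log2 fold change −3.52, SE 2.33, edgeR adjusted p 0.331). The abundant housekeeping genes Eef1a1 and mt-Co1 were not called (log2 fold change −0.17, SE 0.06, edgeR adjusted p 0.0597 and log2 fold change −0.04, SE 0.13, edgeR adjusted p 0.863). Perp, a desmosome protein among the most abundant genes, fell by 0.28. Perp lost its call without Con replicate 2 or BCC replicate 1 or 2 (adjusted p 0.0531 to 0.0569). Cyp2g1 was called with sex as a covariate (adjusted p 0.00134) and Eef1a1 was called with the DESeq2 Wald test or without Con replicate 3 (adjusted p 0.00147 to 0.0437).

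Because the pathway ends in GLI factors, their consensus was searched in promoters, here 250 bases before to 50 bases after each gene's start in RefSeq (GRCm38.p6). The motif was GACCACCCA or its reverse complement TGGGTGGTC, a match of all 9 letters on either strand. It was found in 0.254% of the 11021 tested genes with a promoter in the table, in 0.415% of those called higher and in 0.246% of those called lower. Of 34 Hedgehog pathway and target genes 22 had a promoter in the table, and 0 of these held the motif, which says only that these letters are not in this window. Among genes called at least 2-fold higher the motif was found in 2 of 846, a share of 0.236%, close to that of all genes. These were Ank2, an ankyrin that anchors membrane proteins, and Gm11541, picked after their values were seen. Ank2 was at 0.323, 0.578 and 0.98 CPM in Con and 4.59, 3.88, 3.25 and 2.56 CPM in BCC (log2 fold change 2.52, SE 0.38, edgeR adjusted p 0.000961), and Gm11541 was at 0, 0.116 and 0 CPM in Con and 3.03, 3.43, 1.36 and 1.64 CPM in BCC (called higher, edgeR adjusted p 0.000474, with no fold since all Con libraries lay under 3 counts). Their promoters are printed to show the match in its context, from 5′ to 3′ on the gene's strand, with the motif in capitals. The motif starts 147 bases before the start of Ank2 (chr3:127409009-127409308, minus strand) and 135 bases before that of Gm11541 (chr11:94704450-94704749, minus strand).
Ank2: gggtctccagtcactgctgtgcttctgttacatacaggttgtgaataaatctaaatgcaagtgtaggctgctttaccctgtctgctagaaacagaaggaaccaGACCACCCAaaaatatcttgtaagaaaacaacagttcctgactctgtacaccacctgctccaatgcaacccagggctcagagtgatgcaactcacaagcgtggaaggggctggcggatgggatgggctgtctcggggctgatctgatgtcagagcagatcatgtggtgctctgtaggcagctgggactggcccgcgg
Gm11541: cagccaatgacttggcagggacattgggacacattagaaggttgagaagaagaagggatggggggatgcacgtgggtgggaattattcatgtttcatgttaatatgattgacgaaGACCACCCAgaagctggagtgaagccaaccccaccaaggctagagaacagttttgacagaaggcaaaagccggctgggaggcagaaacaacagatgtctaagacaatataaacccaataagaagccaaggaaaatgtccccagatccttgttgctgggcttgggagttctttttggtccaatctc
A match is a description of the sequence and not a site of binding.

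Reads of genes whose exons overlap those of another gene of the count table (GENCODE M21) may have been divided between them, since how counting used strand is not given in the sources used here. Among the genes above this holds for Arhgef40, Axin2, Bax, Bmp6, Car9, Ccn2, Ccnd1, Ccnd2, Cdk4, Cebpa, Chrd, Col4a1, Col4a2, Col4a3, Col5a1, Crem, Cyyr1, Dio2, Dsp, Egfl7, Fgf2, Fgf22, Fgfr2, Foxe1, Foxm1, Foxq1, Fst, Gas1, Gata3, Gli1, Gli3, Gnas, Hk1, Hopx, Id4, Igf2, Igfbp7, Kif3c, Kif7, Krt10, Krt5, Krt6a, Krt6b, Krt7, Lrig1, Mcm7, Mettl7a2, Mmp11, Nlrc5, Notch1, Notch2, Notch3, Ovol1, Pdgfa, Pi15, Plec, Pltp, Pmel, Prkar1b, Psmb9, Sbsn, Slc24a5, Srebf1, Tap1, Tap2, Tcf7l1, Tgfb2, Timp3, Twist2, Wnt7b and Xist. Gas1, Kif7, Gli1 and Gnas are among them, so their levels carry that uncertainty, whereas Ptch1, Gli2 and Smo have no such overlap.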

How the data were processed

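Estimated counts per gene were deposited by the authors in 1 table for all 21 libraries, with 33.4% of the values not whole, and they were rounded to whole numbers before testing. The submitters' processing notes name bcl2fastq 2.20, cutadapt 1.18, STAR 2.7.0f, Partek and the build mm10, without role or order, and strand use and annotation are not given in the sources used here. Multi-mapped reads may have been shared out between similar genes, which would change counts of gene families. A companion table deposited by the authors holds a TMM-normalized signal, equal to the count times 1 factor per library plus 0.001. It served as an alternative only, as log2(value + 1) in limma.

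The 7 libraries were taken by title, and the 14 columns of other experiments were not used. Genes passed edgeR's filterByExpr by group (16370 of 23713), libraries were scaled by TMM, and edgeR 4.0.16 (R 4.3.3) fitted its robust quasi-likelihood F test with group as the single term (a two-sided test, common biological coefficient of variation 0.167). Fold changes are BCC over Con, with Benjamini-Hochberg adjustment over all genes tested. On simulated counts of 15579 genes, of which 200 were changed, the test recovered 74% of 2-fold and 92.9% of 4-fold changes. Among the genes called there, 7.78% were false. The data had 29.7% of genes called, a far larger share than was changed in the simulation, so these rates need not hold for them. No libraries of a group agreed within sampling noise (lowest chi-square per degree of freedom 8.93). This cannot show whether they came from separate mice, and each was counted as 1 sample. The floor of 3 counts covers counting error only, without molecular identifiers.

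The members and gene lists were chosen with earlier results of these data known, so no list carries a test and list counts are descriptions. Named genes were Smo, list members (called members with the largest changes, every Hedgehog pathway member tested), and genes by rule. The rule took the 15 highest and 15 lowest fold changes of called genes whose groups did not overlap and whose average log2 CPM reached 2, and the 10 smallest p-values. It also took the 10 most abundant genes per group and the 5 most variable within each group. Some genes that the lists or this rule name are not reported here. Exon positions came from GENCODE M21 (GRCm38) and promoters from RefSeq (GRCm38.p6). Alternatives were DESeq2 1.42.0 (size factors, and its Wald test), no filter on low counts, a replicate block, sex as a covariate, limma-trend (limma 3.58.1), leaving out each library, and a prior count of 0.5 in place of 2 for list scores. Tables and plots were made in Python 3.11.15 with pandas 2.3.3, numpy 2.4.6 and matplotlib 3.10.9.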

Additional observations from a re-analysis of the deposited data

Results flagged for a closer look

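Among 433 values tested over the 4 BCC libraries, 10 (2.31%) had 1 library far from the other 3, where chance alone gives about 1 in 20. BCC replicate 2 stood apart for the co-receptor gene Cdon (51.5 CPM, others 43.9 to 45.0), Fzd1 (173, others 131 to 138) and Slc15a2 (15.3, others 9.43 to 10.3). It also stood apart for Fcgr3 (1.72 CPM, others 1.03 to 1.06) and, on the low side, Mvk (41.1, others 52.3 to 54.0). BCC replicate 3 was high for Col3a1 (4.33 CPM, others 1.88 to 2.15), Tcf7l2 (32.9, others 29.2 to 29.5) and Wnt7a (0.658, others 0.368 to 0.41). It was low for Lama5 (284 CPM, others 308 to 312). In BCC replicate 4 the pseudogene Rpl15-ps2 was at 3.59 CPM, against 41.0 to 46.0 in the others. The cause was not tested for any of these.

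For 4 genes every BCC library lay on one side of Con in females and on the other in males, with a single female Con library. Col3a1 differed by −1.65 on the log2 scale in females and 1.55 in males, and Mmp9 by −0.45 and 1.48. Cdk6 differed by −0.11 and 0.24, and mt-Co1 by 0.34 and −0.20. None of the 4 was called, and the difference between the sexes was not tested.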

How the results depend on the processing

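The 4860 called genes became 4886 with DESeq2 size factors, 4719 with no filter on low counts, 5307 in the DESeq2 Wald test, 5206 with sex as a covariate and 4877 in limma-trend. Leaving out 1 library gave 3613 (without Con replicate 2) to 4627, and 1514 to 1806 genes called at 2-fold or more against 1741. In limma-trend, on log2(value + 1), 1196 genes were called at 2-fold or more. Under every alternative the higher genes were 52.6% to 57.9% of calls, against 54.4%. Same-numbered Con and BCC libraries did not deviate together (correlations of −0.09, −0.13 and −0.13). Each such pair was of opposite sex, so these correlations cannot show whether the numbers pair samples. No label states that they do, so the numbers were not used as pairs in the main fit. BCC replicate 4 has no Con library of its number. With the replicate block 3428 genes were called (1984 higher, 1444 lower, 3313 of them among the 4860), 1477 of them at 2-fold or more. It ended 54 calls of genes named here, Krt84, Krt36, Sox9, Fras1 and Sparc among them. List counts that moved by at least 2 genes and over 1.5 times were, for genes called lower, 5 in place of 0 inner root sheath, 1 in place of 3 hard keratin, 2 in place of 5 cell cycle, 2 in place of 6 matrix, 3 in place of 5 cAMP, 2 in place of 4 melanocyte and 3 in place of 1 YAP and AP-1 genes. For genes called higher they were 0 in place of 3 wound, 1 in place of 3 endothelial and 2 in place of 0 sebocyte genes.

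Of the 338 called genes named in the text, 236 were called under all 13 alternatives and none changed sign. Among the others, 3 (Il2rb, Oasl2 and Pdgfrb) were too low to be tested in 3 of the 13. Leaving out 1 library ended 26 (BCC replicate 3) to 66 (Con replicate 2) of these calls, not counting genes left untested. The sign changed in 6 uncalled genes. Col3a1 was at 0.37 with the replicate block, 0.0928 with sex as a covariate, 0.18 in limma-trend and −0.53 to 1.37 with 1 library left out. Cyp2g1 was at 1.39 with the replicate block and −4.44 to 4.08 with 1 library left out. Hes1 was at 0.0415 and mt-Co1 at 0.0114 with sex as a covariate, and −0.17 to 0.0731 and −0.20 to 0.12 with 1 library left out. Col1a1 ranged from −0.12 to 0.54 and Top2a from −0.0867 to 0.0410. The median of the mitosis list ranged from −0.27 to 0.00322 over the same fits. The causes were not tested. Of 533 list medians, 504 moved by no more than the median standard error of the log2 fold changes of the list's members.

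With 3 counts at 0.138 to 0.173 CPM, changes of genes at 0 in a group, and of the Hedgehog ligands, were below what this depth can size. A single female Con library limits every comparison of the sexes.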

Other observations

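Among genes outside the lists, picked after their values were seen, a few were detected almost solely in BCC. Astl, which encodes the egg protease ovastacin, was at 0, 0 and 0 CPM in Con and 6.57, 5.74, 5.13 and 5.64 CPM in BCC. Its levels within BCC lay close together, and it was called higher (edgeR adjusted p 8.69e-06). Hmga2, a chromatin protein of embryonic and tumour tissue, was at 0, 0 and 0.0545 CPM in Con and 4.78, 5.35, 3.95 and 4.72 CPM in BCC and was called higher (edgeR adjusted p 7.04e-06). Con libraries lay under the floor of 3 counts in both genes, so no fold is given.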
